A study of Mus musculus with 32 samples.

Results

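Creatine and calcium cycling genes are 8 mouse genes, Gatm, Gamt, Slc6a8, Ckb, Ckmt2, Alpl, Atp2a2 and Atp2a1, taken by symbol from the 20666 genes that the array's probes could be named for. All 8 had a probe, 11 probes in all, because Gamt, Ckb and Atp2a2 had 2 each. RNA of 32 C57Bl/6 samples was hybridised to one-colour arrays, with 4 samples in each of 8 groups. The culture groups were a control and a Pparg knockdown, and a control and a Gyk knockdown, all at room temperature. The mouse groups were a Pparg control and a Pparg knockout at room temperature, and a Pparg control and a Pparg knockout under cold exposure. Pparg encodes a nuclear receptor of fat cells, and Gyk, as the labels spell it, is glycerol kinase (Gk in the gene table). The labels name the cell type of every sample as preadipocytes, and leave out the method of knockdown and knockout, the cells in which the gene was deleted and the length of the cold. They also do not say whether the 4 samples of a group were separate animals or cultures, so p-values here reflect a spread among samples that may be technical.

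Creatine is made in a pair of steps. Gatm, glycine amidinotransferase, forms guanidinoacetate, Gamt methylates it to creatine, and the carrier Slc6a8 brings creatine into cells from the blood. The kinases Ckb, in the cytosol, and Ckmt2, in mitochondria, charge creatine with phosphate, and in thermogenic fat a phosphatase, Alpl, can release it again, so that the cycle spends ATP and yields heat. The calcium pumps Atp2a2 (SERCA2) and Atp2a1 (SERCA1) move calcium into the endoplasmic or sarcoplasmic reticulum at the cost of ATP. A pump that works against a leak also yields heat, and Atp2a1 is the main pump of fast skeletal muscle.

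Every level below is a log2 intensity relative to the 75th percentile of the same array, so a gene at 0 is as bright as that percentile and each unit is a 2-fold step. The 75th percentile itself lay between 141 and 806 intensity units, lowest on arrays 3 and 4 of the Gyk knockdown. In mice at room temperature it was 293 to 406 on control arrays and 499 to 604 on knockout arrays, without overlap. Differences are log2 differences with their standard error (SE), and adjusted p-values come from limma, corrected by Benjamini and Hochberg's method across every gene in the fit. Each knockdown or knockout shared its slides and scan day with its own control. The cold and room-temperature arrays were scanned on different days and slides, so temperature and scan day cannot be told apart. The Pparg probe differed by -1.91 in the knockdown, and by 2.08 at room temperature and 2.13 in the cold on the arrays labelled knockout. Whether that probe lies in the deleted part is not given in the sources used here, so it checks nothing there. Ucp1, the uncoupling protein of brown fat, differed by -2.84 in the Pparg knockdown, -0.96 in the Gyk knockdown, and -1.02 and -1.01 on the knockout arrays at room temperature and in the cold. It also differed by -1.04 (control) and -1.03 (knockout) in the cold. Of 5 mature adipocyte markers, 4 or 5 were well above background on every culture array. Of 5 endothelial markers, 1 to 3 were well above background on culture arrays and 5 on mouse arrays. On 4 mouse arrays, Myh4, the myosin of fast muscle, lay above the 75th percentile: knockout array 1 at room temperature, control arrays 1 and 2 in the cold and knockout array 4 in the cold. The mouse comparisons were also fitted without these 4 arrays, and those values are given as well. In the cold this leaves control arrays 3 and 4 on 1 slide with knockout array 3, and knockout arrays 1 and 2 on the other slide. Knockout and slide are thus partly confounded in the cold fits without these arrays.

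Promoter sequences are shown for Gamt, Ckb and Alpl, the genes with the largest called differences between knockout and control mice. They come from RefSeq (GRCm38.p6), which held 7 windows for 6 of the 8 genes. Slc6a8 and Atp2a2 are named only. Each window is the 250 bases before an annotated start, and Alpl has a window at each of 2 starts. All 4 lie on the minus strand and are written 5′ to 3′ along it. Capitals mark a match to a motif searched on both strands.
Gamt, chr10:80261013-80261262: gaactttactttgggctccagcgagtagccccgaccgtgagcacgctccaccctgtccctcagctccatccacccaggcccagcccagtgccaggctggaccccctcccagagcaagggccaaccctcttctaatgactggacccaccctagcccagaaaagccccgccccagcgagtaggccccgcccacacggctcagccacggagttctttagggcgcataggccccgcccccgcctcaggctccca
Ckb, chr12:111672339-111672588: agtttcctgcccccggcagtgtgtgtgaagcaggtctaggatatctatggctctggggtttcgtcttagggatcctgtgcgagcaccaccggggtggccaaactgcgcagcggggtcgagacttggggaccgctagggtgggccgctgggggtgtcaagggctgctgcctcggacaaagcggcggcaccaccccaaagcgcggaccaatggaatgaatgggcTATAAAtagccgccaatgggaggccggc
Alpl, first window, chr4:137796385-137796634: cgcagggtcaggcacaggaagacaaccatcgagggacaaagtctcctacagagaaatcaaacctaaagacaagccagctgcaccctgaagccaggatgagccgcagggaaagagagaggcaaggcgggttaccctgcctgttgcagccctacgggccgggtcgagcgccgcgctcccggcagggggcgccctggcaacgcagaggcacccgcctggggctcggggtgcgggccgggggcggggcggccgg
Alpl, second window, chr4:137766476-137766725: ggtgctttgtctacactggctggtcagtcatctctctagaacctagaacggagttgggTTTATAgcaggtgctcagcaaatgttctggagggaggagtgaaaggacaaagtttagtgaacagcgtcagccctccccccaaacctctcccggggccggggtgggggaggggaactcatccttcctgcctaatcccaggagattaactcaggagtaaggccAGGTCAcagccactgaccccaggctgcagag

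The motifs were the nuclear receptor half-site AGGTCA, its direct repeat with 1 free base between (DR1, the form that PPARG with its partner RXR binds), TCAAGGTCA, the cyclic AMP element TGACGTCA, and the TATA box TATAAA. The half-site lies within both of the longer receptor motifs. The Ckb window held a TATA box 28 bases before the start, a match present in 12.4% of 32851 promoter windows of the same length. The second Alpl window held a half-site 31 bases before the start, as 14.0% of windows do, and TATAAA on the other strand 192 bases before it. None of the 7 windows held the full DR1 (0.0335% of windows), TCAAGGTCA (0.387%) or TGACGTCA (1.55%). The closest stretch to the 12 fixed letters of the DR1 matched 8 in Gamt, 7 in Ckb, and 7 and 9 in the Alpl windows. At least 8 letters matched in 74.5% of all windows and at least 9 in 21.3%. Of the windows not shown, Gatm and Atp2a1 held a half-site each, and the closest stretch matched 8 letters in Gatm, 9 in Atp2a1 and 10 in Ckmt2 (at least 10 in 3.24% of all windows). The GC share was 66.8% in Gamt, 62.8% in Ckb, and 68.4% and 56.0% in the Alpl windows. These are matches of letters in short windows and say nothing of binding.

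A gene was tested where 4 or more of the arrays compared had its probe well above background. In the Pparg knockdown 6 of the 8 genes could be tested, and 2 of them were higher. Of all genes 34.1% were called there, 18.1% as higher and 16% as lower. In the Gyk knockdown 1 of 6 was higher, beside 8.76% of all genes called (4.65% higher, 4.11% lower). In the knockout at room temperature 3 of 7 were higher and 2 lower, beside 44.6% (19.6% higher, 25% lower). In the knockout in the cold 3 of 8 were higher, beside 32% (13.7% higher, 18.3% lower). In control mice 3 of 7 were higher and 3 lower on cold than on room-temperature arrays, beside 66.8% (42.4% higher, 24.4% lower). In knockout mice 1 of 7 was higher and 1 lower on the cold arrays, beside 67.5% (42.2% higher, 25.3% lower). The knockout effect differed between cold and room temperature for 4 of 8 genes, beside 13.4% (6.12% higher, 7.25% lower). The Pparg and Gyk knockdown effects differed for 1 of 6, beside 12.4% (6.29% higher, 6.14% lower). The median difference of the tested genes was 0.69 in the knockout at room temperature, beside -0.05 over all genes, and -0.70 in cold control mice, beside 0.25 over all genes. In the other comparisons the medians lay between -0.05 and 0.50, beside -0.05 to 0.24 over all genes. The comparisons in mice share groups, so a gene's values in them are not independent.

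**Figure D1:**
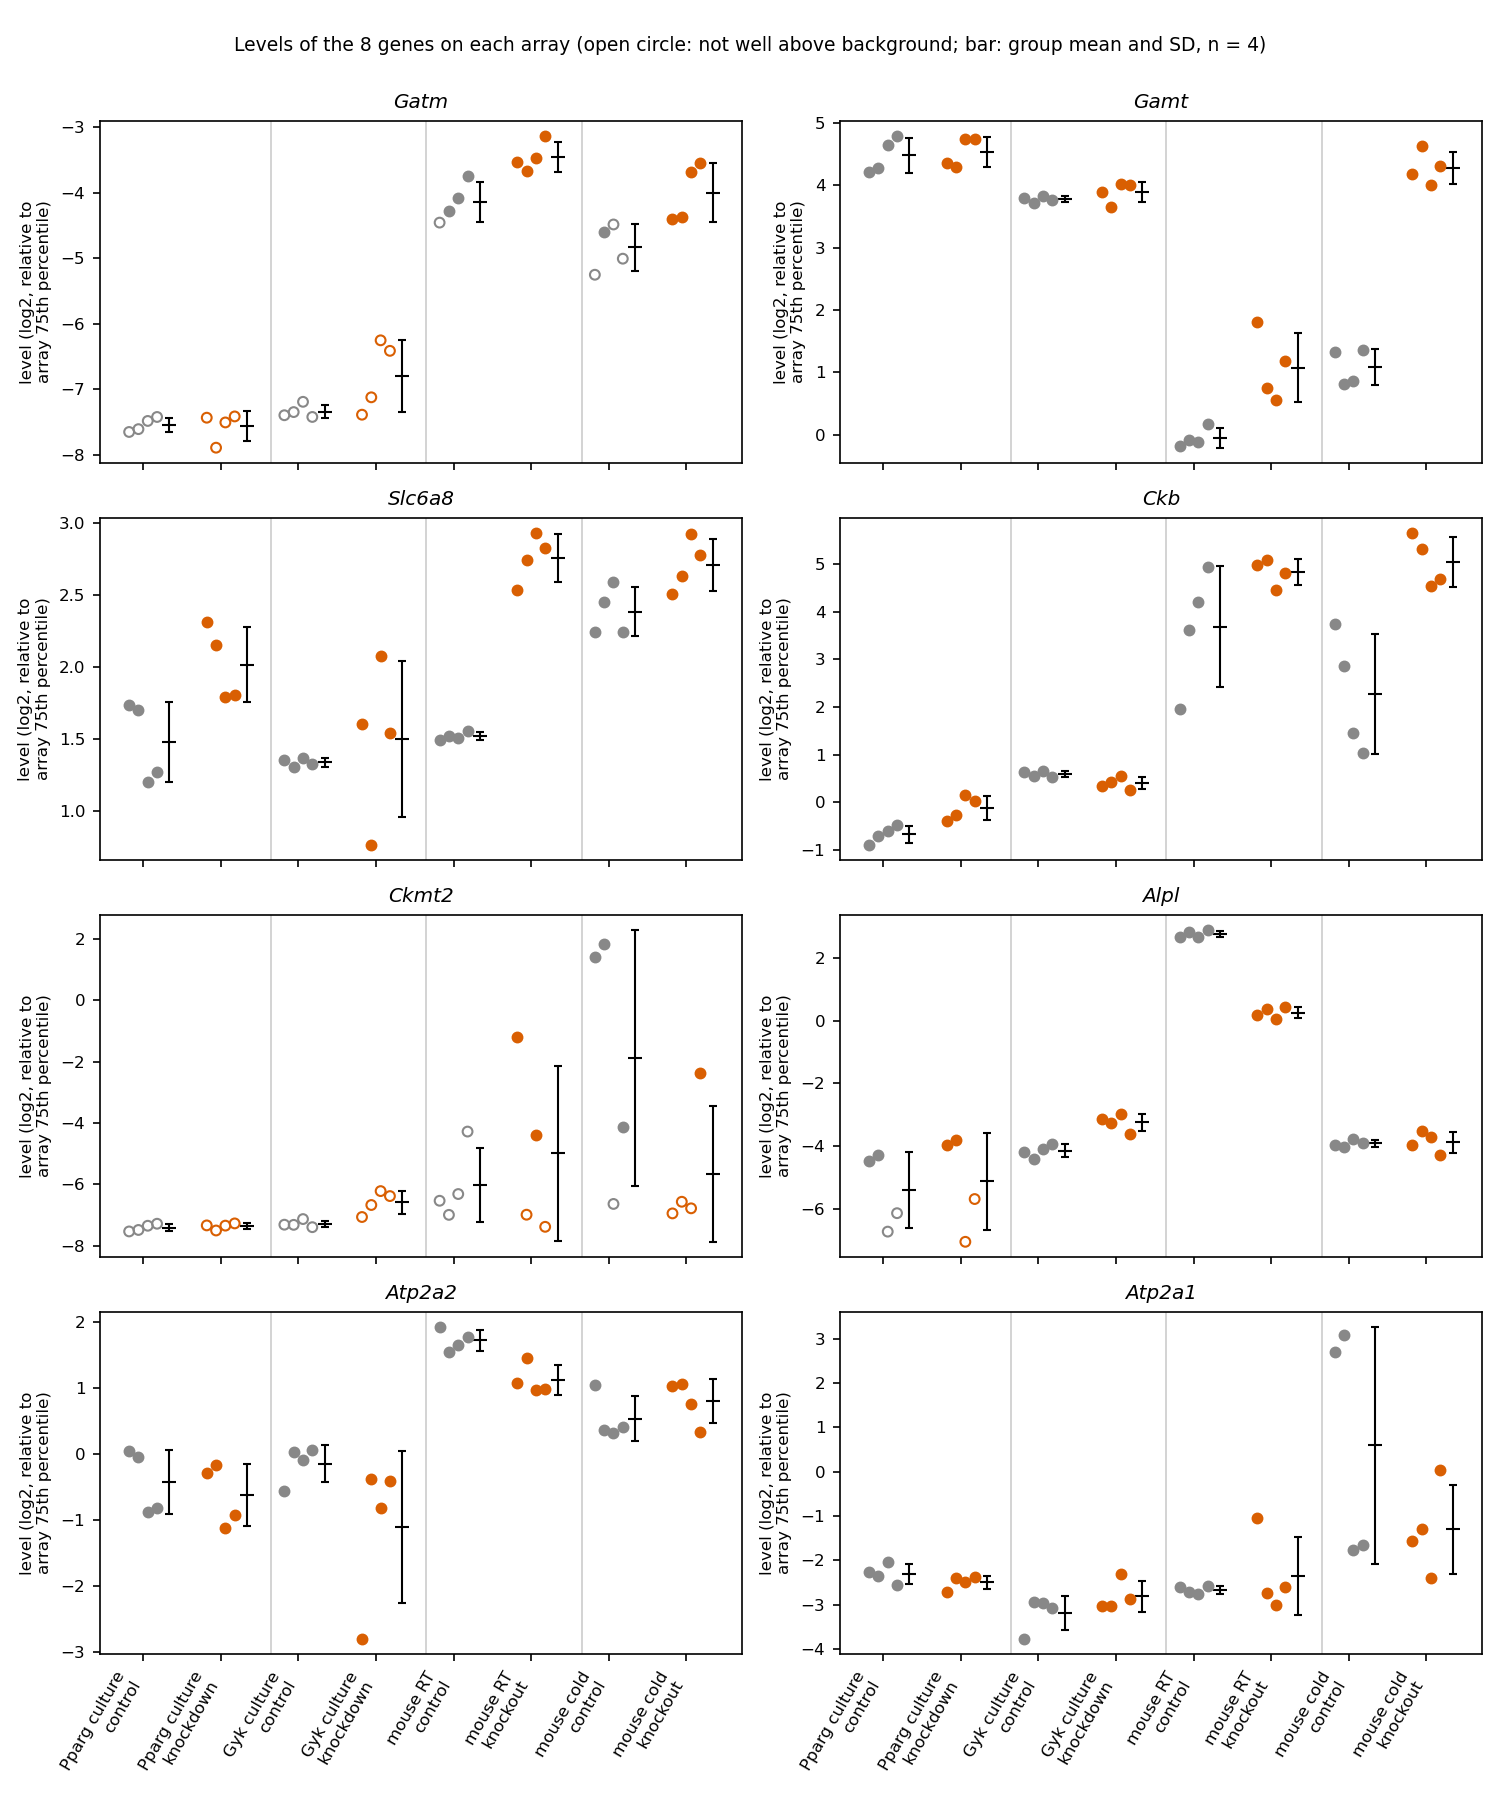
Levels of the 8 genes on each of the 32 arrays (log2, relative to the array's 75th percentile), in the 8 groups of 4, with controls in grey and knockdowns or knockouts in orange. Filled circles are well above background, open circles are not, and the bars give the group mean with its SD. Alpl stood between 2.67 and 2.89 in room-temperature controls and between -4.02 and -3.76 in cold controls, and Gamt stood between 0.81 and 1.36 on cold control arrays and between 4.01 and 4.63 on cold knockout arrays.

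Gatm, which catalyses the first step of creatine synthesis, was not well above background on any culture array and stood near background in mice. Its level on the room-temperature control arrays was -4.46, -4.28, -4.08 and -3.75, with 3 of the 4 well above background. On the room-temperature knockout arrays it was -3.53, -3.67, -3.46 and -3.13, above every control. The difference was 0.69 (SE 0.17, adjusted p = 0.01196), and 1.07 and 0.31 within the 2 slides. In the cold the control arrays gave -5.25, -4.60, -4.48 and -5.01, and the knockout arrays -4.40, -4.38, -3.68 and -3.54. The groups again did not overlap and differed by 0.83 (SE 0.26, adjusted p = 0.03589), but only 1 cold control array was well above background. Cold control arrays were lower than room-temperature controls (difference -0.70, SE 0.21, adjusted p = 0.01765), and in knockout mice the cold difference of -0.55 missed the threshold (adjusted p = 0.0556). The latter became a call without cold knockout array 3 (-0.66, adjusted p = 0.0387) or 4 (-0.71, adjusted p = 0.02072) and without the arrays high in Myh4 (-0.73, adjusted p = 0.03766). Without those arrays the room-temperature knockout difference was 0.72 (adjusted p = 0.02403), while the cold knockout difference and the cold difference in controls could not be tested. The normexp background correction added an offset of 50 intensity units to every signal, which in itself shrinks differences between dim signals. With it the knockout differences were 0.14 (adjusted p = 0.7502) at room temperature and 0.54 (adjusted p = 0.1469) in the cold. Between cold and room-temperature controls the difference was -0.14 (adjusted p = 0.347), so none of the 3 calls held. Quantile normalization (-0.38, adjusted p = 0.2832) and median centring (-0.35, adjusted p = 0.1948) also ended the cold call in controls. The knockout call in the cold was also lost under quantile normalization (0.92, adjusted p = 0.08291), median centring (0.78, adjusted p = 0.07091) and with no filter on dim probes (adjusted p = 0.0686), and without control array 1 or 4, or knockout array 3 or 4 (adjusted p 0.08275 to 0.09262).

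Gamt, the methyltransferase that completes creatine, had the largest called rise of the 8 genes on the arrays labelled knockout. In the cold its level was 1.32, 0.81, 0.86 and 1.36 on the control arrays and 4.18, 4.63, 4.01 and 4.30 on the knockout arrays. The groups lay far apart, and the difference of 3.19 (SE 0.19, adjusted p = 3.228e-05) is 9.14-fold. It was 3.34 and 3.05 within the 2 slides, and 3.16 (adjusted p = 0.002792) without the arrays high in Myh4. At room temperature the control arrays gave -0.18, -0.09, -0.11 and 0.18, and the knockout arrays 1.80, 0.76, 0.56 and 1.18. That rise was 1.13 (SE 0.25, adjusted p = 0.006953), again without overlap, and 0.89 (adjusted p = 0.005144) without the arrays high in Myh4. The second Gamt probe rose by 3.19 in the cold and 1.24 at room temperature. The test of the difference between these 2 knockout effects gave 2.06 (SE 0.33, adjusted p = 0.001745), and 2.28 (adjusted p = 0.00297) without those arrays.

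Gamt was also higher on cold than on room-temperature arrays in both genotypes, by 1.14 (SE 0.16, adjusted p = 0.0002867) in controls and by 3.20 (SE 0.27, adjusted p = 1.315e-05) in knockout mice. Temperature and scan day cannot be told apart in these differences. The ranges of cold and room-temperature arrays did not overlap in either genotype, and without the arrays high in Myh4 the rises were 1.16 and 3.44. In culture Gamt was high too, between 4.21 and 4.79 on Pparg control arrays and between 4.29 and 4.75 on Pparg knockdown arrays. These ranges overlapped, and the difference was 0.05 with a 95% interval of -0.33 to 0.43. On Gyk control arrays it stood between 3.72 and 3.83 and on Gyk knockdown arrays between 3.66 and 4.02, a difference of 0.12 (95% interval -0.14 to 0.38). The Gyk control arrays lay below every cold knockout array, and by the second probe both Gyk groups did. In the order of group means, the 5 highest groups were the 4 culture groups and the cold knockout mice, whose neighbours overlapped by the brighter probe. Cold control (1.09 ± 0.29, SD, n = 4) and room-temperature knockout (1.08 ± 0.55, SD, n = 4) came next and overlapped, and room-temperature control was lowest (-0.05 ± 0.16, SD, n = 4).

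The arrays are of bulk RNA, in which fewer cells of a type and less RNA per cell cannot be told apart, and markers of other cells moved with the knockout in the cold. There all 4 macrophage markers with a probe were higher, as were 5 of 7 preadipocyte and fibroblast markers and both neutrophil markers tested, beside 13.7% of all genes. All 5 mature adipocyte markers were lower, beside 18.3% of all genes. The summed macrophage signal, in units of the 75th percentile, was 13.0 to 15.2 on cold control arrays and 19.7 to 33.1 on cold knockout arrays. The summed preadipocyte and fibroblast signal was 81.9 to 119.5 and 129.4 to 169.7, and most of it came from the marker Dcn (mean levels 6.32 and 6.88). At room temperature the macrophage sums overlapped, at 20.2 to 28.5 on control and 23.1 to 25.2 on knockout arrays, while the summed adipocyte signal was 1165 to 1516 on control and 608 to 651 on knockout arrays. The part of these cells in the rise of Gamt, Ckb, Slc6a8 and Gatm was not tested. On culture arrays 2 or 3 of the 4 macrophage markers were well above background, with Csf1r and Itgam on every array and Lyz2 on none, and the summed macrophage signal was 1.11 to 4.88.

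Slc6a8, the creatine transporter, rose in the Pparg knockdown and on the room-temperature knockout arrays. At room temperature the control arrays were nearly equal, at 1.50, 1.52, 1.51 and 1.56, and the knockout arrays gave 2.53, 2.74, 2.93 and 2.83. The rise was 1.24 (SE 0.10, adjusted p = 4.039e-05), or 2.35-fold, and 1.37 and 1.10 within the 2 slides, and 1.31 (adjusted p = 7.962e-05) without the arrays high in Myh4. In the cold the control arrays were already at 2.24, 2.45, 2.59 and 2.25, and the knockout arrays at 2.51, 2.63, 2.92 and 2.78. These ranges overlapped and the difference was 0.33 (SE 0.14, adjusted p = 0.1043), although quantile normalization gave 0.47 with an adjusted p of 0.04933. The knockout effect was smaller in the cold than at room temperature (difference of effects -0.91, SE 0.16, adjusted p = 0.003703), a call that normexp ended (-1.01, adjusted p = 0.05004). Slc6a8 was higher on cold than on room-temperature arrays by 0.86 (SE 0.11, adjusted p = 0.0001579) in controls, and in knockout mice the cold difference was -0.05 (95% interval -0.34 to 0.25). The cold control arrays thus lay above all room-temperature controls. With the arrays high in Myh4 left out, these 4 values were 0.27 for the cold knockout, -1.04 for the difference of effects, and 0.90 and -0.15 for the cold in controls and knockout mice, with the same calls.

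In culture Slc6a8 stood at 1.74, 1.70, 1.21 and 1.27 on Pparg control arrays and at 2.31, 2.15, 1.79 and 1.81 on knockdown arrays. The lowest knockdown array was above the highest control array, and the rise was 0.53 (SE 0.17, adjusted p = 0.04111). Arrays 1 and 2 of both groups, which shared a slide, were higher than arrays 3 and 4, and with the replicate number as a block the same rise had an adjusted p of 0.0003181. Without the block it was lost under quantile normalization (0.57, adjusted p = 0.05003), median centring (0.40, adjusted p = 0.07653), normexp (0.53, adjusted p = 0.1024) or without the filter on dim probes (adjusted p = 0.08155), and without control array 3 or 4 or knockdown array 1 or 2 (adjusted p 0.09498 to 0.09922). In the Gyk experiment the control arrays gave 1.36, 1.31, 1.37 and 1.33 and the knockdown arrays 1.61, 0.77, 2.08 and 1.55. The knockdown arrays lay on both sides of the controls, with a difference of 0.16 (95% interval -0.41 to 0.73). The 2 knockdown effects did not differ by the test (0.37, 95% interval -0.30 to 1.05, adjusted p = 0.513).

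Ckb, the cytosolic creatine kinase of brain and fat, was higher on the cold knockout arrays and varied widely among control mice. In the cold the control arrays gave 3.75, 2.85, 1.45 and 1.03, and the knockout arrays 5.65, 5.33, 4.54 and 4.69. All knockout arrays were above all controls, by 2.78 (SE 0.57, adjusted p = 0.007349) or 6.86-fold. The difference was 2.18 and 3.37 within the 2 slides. Without the arrays high in Myh4, which include the 2 highest controls, it was 3.93 (adjusted p = 0.003127). The controls left in that fit lie on the slide with the lower Ckb levels in both genotypes. The part of slide in that value was not tested. The second Ckb probe rose by 2.54. At room temperature the control arrays spread from 1.96 through 3.62 and 4.22 to 4.95, whereas the knockout arrays lay close together at 4.99, 5.08, 4.45 and 4.81. The difference of 1.15 (SE 0.56, adjusted p = 0.1262) missed the threshold, and without control array 4 it was 1.57 (adjusted p = 0.03848). The knockout effects did not differ between temperatures by the test (1.63, 95% interval -0.22 to 3.48, adjusted p = 0.2246). Without the arrays high in Myh4 the room-temperature difference was 1.09 (adjusted p = 0.2072) and the difference of effects 2.84 (adjusted p = 0.06518).

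Between cold and room-temperature controls Ckb differed by -1.41 (SE 0.75, adjusted p = 0.1249), with overlapping ranges. This became a call without room-temperature control array 1 (-1.99, adjusted p = 0.03054), without cold control array 1 (-1.91, adjusted p = 0.04575) and without the arrays high in Myh4 (-2.44, adjusted p = 0.02175). In knockout mice the cold difference was 0.22 (95% interval -0.38 to 0.81), and 0.39 (adjusted p = 0.31) without those arrays. In culture Ckb was lower than in any mouse group. Pparg control arrays gave -0.89, -0.71, -0.59 and -0.48 and knockdown arrays -0.39, -0.26, 0.16 and 0.04. The groups did not overlap, and Ckb rose by 0.55 (SE 0.14, adjusted p = 0.01724; 0.0009982 with the replicate block). Median centring (0.41, adjusted p = 0.1202), normexp (0.45, adjusted p = 0.05306) and leaving out knockdown array 4 (0.50, adjusted p = 0.05039) ended this call, and the second probe gave 0.37 (adjusted p = 0.05783). In the Gyk experiment the control arrays stood at 0.64, 0.55, 0.66 and 0.54 and the knockdown arrays at 0.34, 0.43, 0.56 and 0.27, a difference of -0.20 (adjusted p = 0.2668). The Pparg and Gyk knockdown effects on Ckb differed by 0.75 (SE 0.18, adjusted p = 0.01242), which did not hold under median centring (adjusted p = 0.05461) or normexp (adjusted p = 0.05953). The second probe gave 0.83 (SE 0.37, adjusted p = 0.1787), which was not called.

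**Figure D2:**
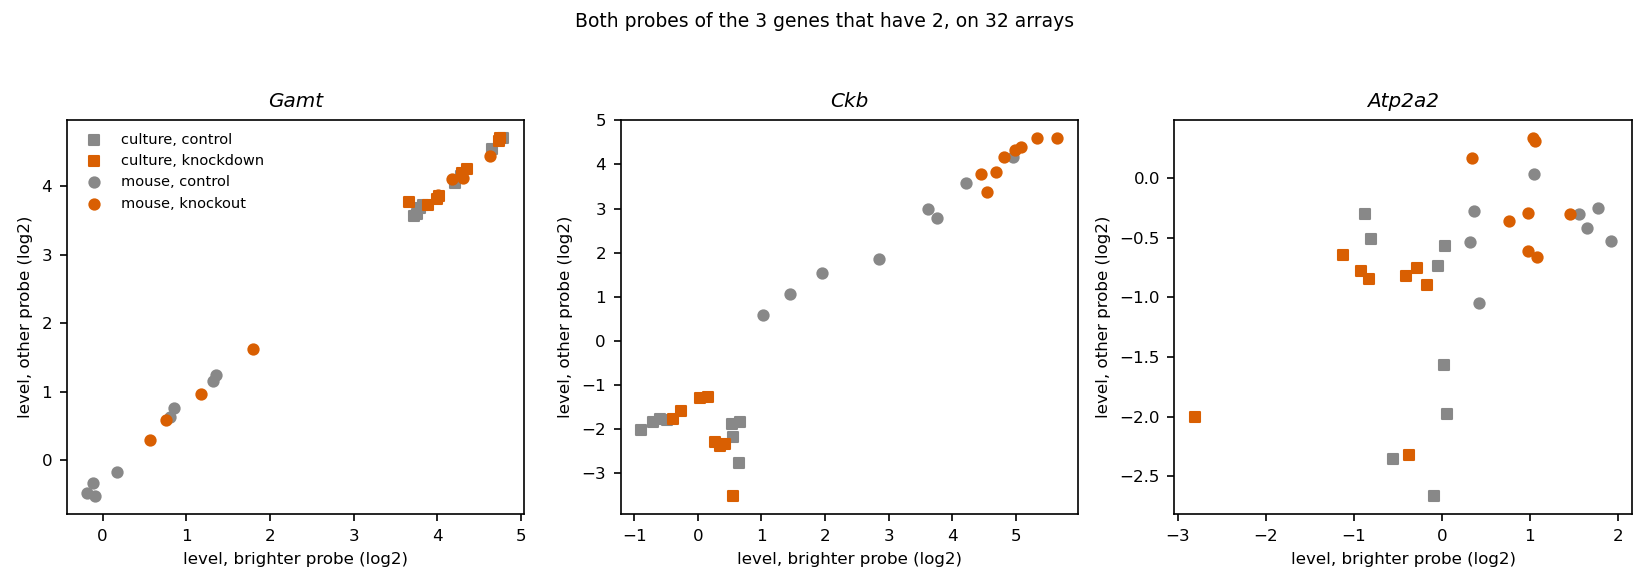
Levels (log2) of the 2 probes of Gamt, Ckb and Atp2a2 on the 32 arrays, with the brighter probe of each gene on the horizontal axis. Squares are culture, circles mice, grey control and orange knockdown or knockout. The Gamt probes move together on all arrays and the Ckb probes move together in mice, while the Atp2a2 probes do not order the arrays alike.

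Ckmt2, the mitochondrial creatine kinase of muscle and heart, was not well above background on any culture array or room-temperature control array. It was well above background on 6 mouse arrays, and 4 of these were the arrays high in Myh4: -1.21 on room-temperature knockout array 1, 1.39 and 1.82 on cold control arrays 1 and 2, and -2.36 on cold knockout array 4. The others were room-temperature knockout array 3 at -4.38 and cold control array 4 at -4.14. On the latter, 11 of the 12 skeletal muscle markers were also well above background. Ckmt2 could be tested only in the cold, where the knockout difference of -3.77 had an SE of 1.94 (adjusted p = 0.1691), and in the test of the difference of effects (-4.81, SE 2.57, adjusted p = 0.2294). Leaving out cold control array 3, itself not well above background, gave -5.35 (adjusted p = 0.04544). Against the room-temperature controls, where no array measured it, the mean of the cold controls was at least 5.93-fold higher, with 3 of 4 cold arrays well above background. That bound sets each dim array at the lowest signal called well above background there. It rests on cold control arrays 1 and 2, both high in Myh4: it was 2.78-fold without array 1 and 2.51-fold without array 2, and without both the cold mean of -5.39 lay below the bound of -4.46, so no fold is left. The difference has no test.

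Alpl, the tissue-nonspecific alkaline phosphatase, had the largest called differences of the 8 genes, with temperature and with the knockout at room temperature. Room-temperature control arrays gave 2.67, 2.83, 2.68 and 2.89, and room-temperature knockout arrays 0.18, 0.39, 0.06 and 0.42. Every knockout array was more than 2 log2 units below every control, and Alpl fell by 2.50 (SE 0.11, adjusted p = 4.422e-06), or 5.67-fold. The fall was the same within the slides, at -2.51 and -2.50. In the cold the control arrays stood at -3.95, -4.02, -3.76 and -3.89, and the knockout arrays at -3.96, -3.51, -3.71 and -4.29. These ranges overlapped, with a difference of 0.03 (95% interval -0.36 to 0.43). All 8 cold arrays were well above background for Alpl, but its level there was as low as that of Gatm on mouse arrays. This limits every Alpl difference that uses the cold arrays.

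Alpl therefore fell in the cold in both genotypes, with differences of -6.67 in controls (SE 0.11, adjusted p = 1.982e-09) and -4.13 in knockout mice (SE 0.18, adjusted p = 3.499e-07). These falls are 101.6-fold and 17.5-fold. With normexp, whose offset on every signal shrinks differences that involve dim signals, they were -4.74 (adjusted p = 5.176e-10) and -2.09 (adjusted p = 0.000457). Without the arrays high in Myh4 they were -6.59 and -4.02, and the knockout differences -2.47 at room temperature and 0.09 in the cold. The knockout effect differed between temperatures by 2.53 (SE 0.21, adjusted p = 1.17e-05), and by 2.57 without those arrays. As temperature and scan day cannot be told apart, the probe's own change between days is not separable from these values. Neither of the 2 osteoblast markers with a probe (Alpl is also an osteoblast enzyme) was well above background on any array. Neutrophils also carry this enzyme, and their summed marker signal was 0.23 to 0.69 on room-temperature controls, 0.69 to 1.43 on room-temperature knockouts, 0.84 to 1.42 on cold controls and 2.40 to 7.69 on cold knockouts. The summed endothelial signal was 13.5 to 19.3 on room-temperature controls, 9.45 to 11.7 on room-temperature knockouts, 7.78 to 8.74 on cold controls and 8.26 to 9.21 on cold knockouts. Of the 5 endothelial markers, 4 were lower in the room-temperature knockout, beside 25% of all genes. Between cold and room temperature the markers moved both ways, with 2 higher and 2 lower in controls and 3 higher and 1 lower in knockout mice. Of all genes 66.8% and 67.5% were called in these comparisons. The part of these cells in the Alpl values was not tested.

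In culture Alpl was low. On Pparg control arrays it was -4.46, -4.27, -6.72 and -6.13, and on knockdown arrays -3.96, -3.81, -7.05 and -5.68. In both groups arrays 3 and 4, on the second slide, were not well above background, and the difference of 0.27 has a 95% interval of -1.62 to 2.16. On Gyk control arrays it was -4.19, -4.41, -4.07 and -3.92, and on Gyk knockdown arrays -3.13, -3.26, -2.96 and -3.62. The groups did not overlap, and Alpl rose by 0.91 (SE 0.17, adjusted p = 0.0201), or 1.87-fold. The rise was 1.11 and 0.71 within the 2 slides and 0.96 (adjusted p = 0.01884) without the 2 dimmest arrays of the series, both Gyk knockdowns. It was lost with normexp (0.41, adjusted p = 0.4294), with no filter on dim probes (adjusted p = 0.05048) and without control array 1, 2 or 3 (adjusted p 0.05994 to 0.06402). The Pparg and Gyk knockdown effects did not differ by the test (-0.63, 95% interval -2.58 to 1.31, adjusted p = 0.7234).

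**Figure D3:**
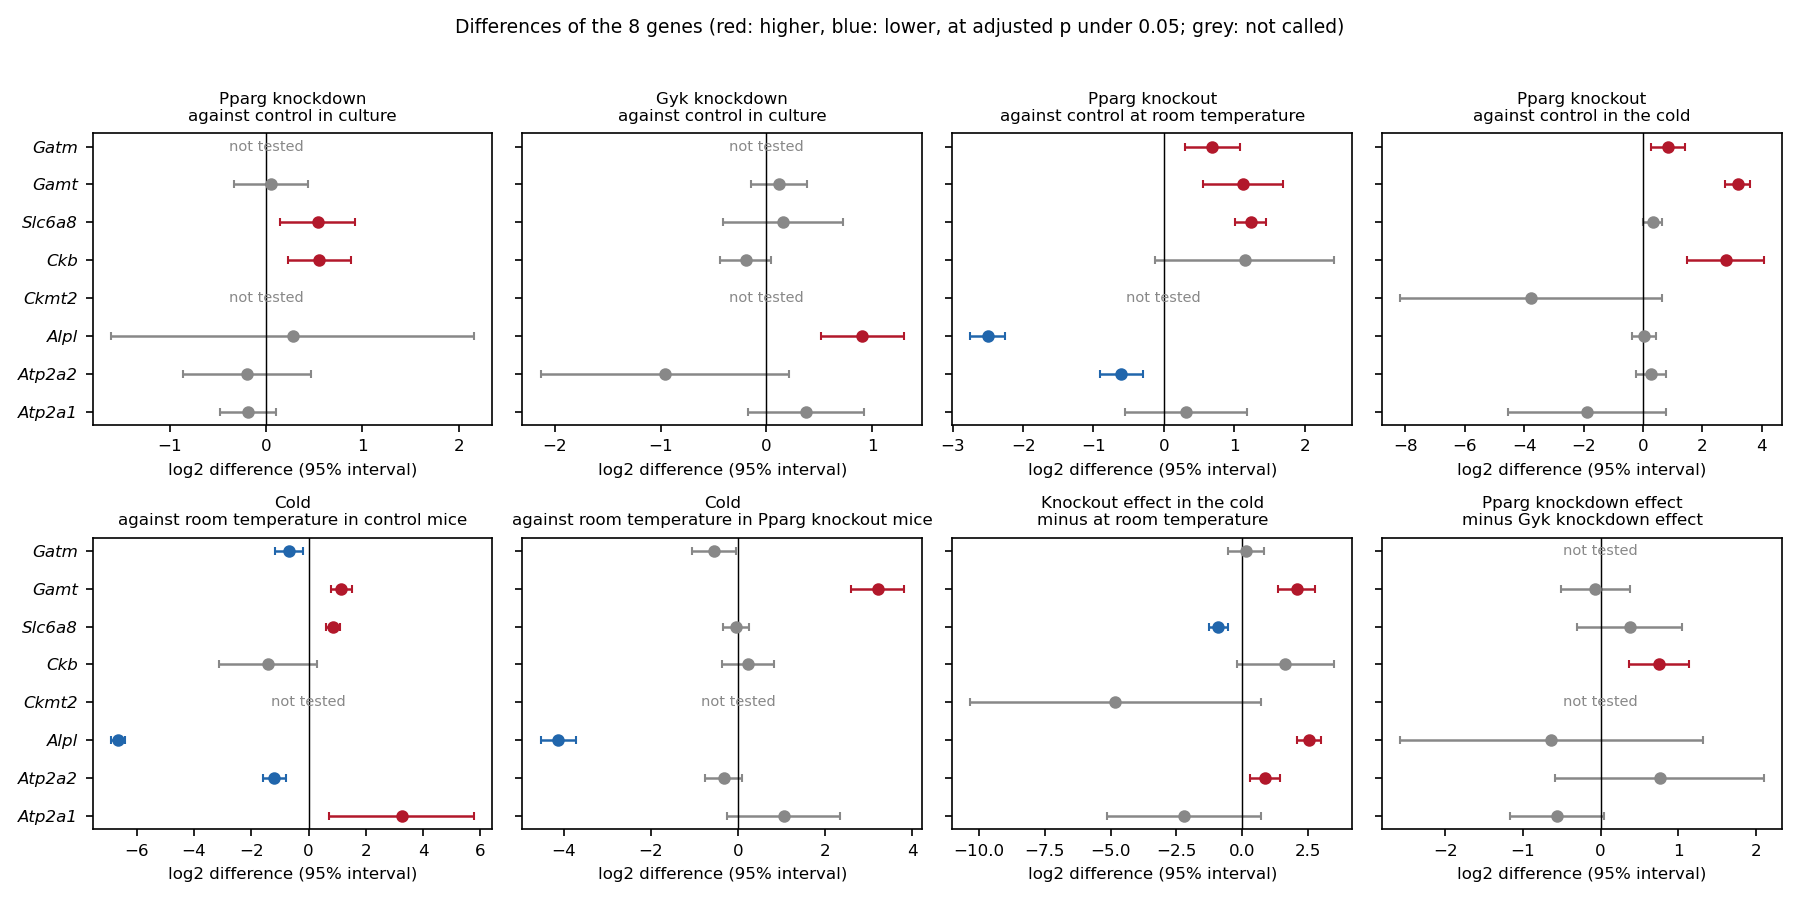
Log2 differences of the 8 genes in the 8 comparisons, with 95% intervals. Red is higher and blue lower at an adjusted p under 0.05, and grey was not called. Alpl lies at -6.67 in cold control mice and Gamt at 3.19 on the cold knockout arrays, and the horizontal scales differ between panels.

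Atp2a2, the widely expressed SERCA pump, had called differences in mice by both of its probes, but never by both in the same comparison. The brighter probe gave 1.92, 1.55, 1.65 and 1.78 on room-temperature control arrays and 1.08, 1.46, 0.98 and 0.98 on knockout arrays. It fell by 0.60 (SE 0.13, adjusted p = 0.007062), with no overlap, and differed by -0.76 and -0.45 within the 2 slides. The other probe gave -0.09 (SE 0.12, adjusted p = 0.5513). The brighter probe gave -0.59 (adjusted p = 0.02014) without the arrays high in Myh4. In the cold the brighter probe gave 1.04, 0.36, 0.32 and 0.42 on control arrays and 1.03, 1.06, 0.76 and 0.34 on knockout arrays, which overlapped (0.26, adjusted p = 0.3876). The other probe gave 0.57 (adjusted p = 0.1142), and without the arrays high in Myh4 the brighter gave 0.58 (adjusted p = 0.06439). The brighter probe was lower on cold than on room-temperature arrays in controls (difference -1.19, SE 0.18, adjusted p = 0.0003789), where the other probe gave -0.08 (adjusted p = 0.7589). In knockout mice the brighter probe gave -0.33 (adjusted p = 0.1489) and the other rose by 0.58 (adjusted p = 0.01768). The brighter probe's cold differences were -1.36 (adjusted p = 0.000175) in controls and -0.19 (adjusted p = 0.3908) in knockout mice without the arrays high in Myh4. The probes thus disagree on Atp2a2 in mice, and no direction for the gene follows from them.

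The knockout effect on the brighter Atp2a2 probe differed between temperatures by 0.87 (SE 0.27, adjusted p = 0.04581). The other probe gave 0.66 (adjusted p = 0.15), and the call was lost under median centring (0.71, adjusted p = 0.07772), normexp (0.70, adjusted p = 0.09582), no filter on dim probes (adjusted p = 0.06578) or the mean of both probes (0.76, adjusted p = 0.05128), and in 13 of 16 fits that left out 1 array. Those fits gave 0.78 to 1.03, with adjusted p from 0.01453 to 0.08496, and without the arrays high in Myh4 the value was 1.17 (adjusted p = 0.01325). In the Pparg culture experiment the brighter probe gave 0.04, -0.04, -0.88 and -0.81 on control arrays and -0.28, -0.17, -1.12 and -0.92 on knockdown arrays. Arrays 1 and 2 of both groups were higher than arrays 3 and 4, the difference of -0.20 was not called (adjusted p = 0.6566), and with the replicate block it was lower by the test (adjusted p = 0.02475). The Gyk control arrays gave -0.56, 0.02, -0.09 and 0.06 and the knockdown arrays -2.80, -0.37, -0.82 and -0.41. Array 1 of the knockdown set the difference of -0.96 (adjusted p = 0.2678), which was -0.39 at its smallest when 1 array was left out. The other probe gave 0.64 (SE 0.40, adjusted p = 0.337) in the Gyk knockdown and -0.24 (adjusted p = 0.1279) in the Pparg knockdown.

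Atp2a1, the SERCA pump of fast muscle, was well above background on all 32 arrays and stood apart on those high in Myh4. Room-temperature control arrays gave -2.60, -2.71, -2.77 and -2.59, and knockout arrays -1.05, -2.73, -3.01 and -2.60, of which the first is high in Myh4. Cold control arrays gave 2.70, 3.08, -1.77 and -1.66, and cold knockout arrays -1.57, -1.29, -2.40 and 0.03. The first 2 cold controls and the last cold knockout are the other arrays high in Myh4. With all arrays, Atp2a1 rose in the cold by 3.25 (SE 1.11, adjusted p = 0.02836) in controls, and the difference in knockout mice was 1.04 (adjusted p = 0.1326; 1.48 and 0.03353 without room-temperature knockout array 1). Without the arrays high in Myh4 the rises were 0.95 (SE 0.12, adjusted p = 0.0003901) and 1.03 (SE 0.29, adjusted p = 0.02212). That fit in controls keeps cold arrays 3 and 4, which still carried muscle signal. Their summed muscle signal was 17.4 and 27.2, beside 10.9 to 13.5 on room-temperature controls. By the mean of the 12 markers array 4 lay above those controls and array 3 below (-1.29 and -4.37, beside -4.11 to -3.84). The call of 3.25 in controls was lost when any 1 of 6 arrays was left out (adjusted p 0.05304 to 0.06884), and held without cold control array 3 or 4. The value was 2.55 without cold control array 1 and 2.42 without cold control array 2. The knockout differences were not called with all arrays, at 0.32 at room temperature and -1.89 in the cold, and were -0.12 and -0.04 without the arrays high in Myh4. In culture Atp2a1 lay between -3.77 and -2.03, and neither knockdown difference was called (-0.19 for Pparg, 0.38 for Gyk).

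**Figure D4:**
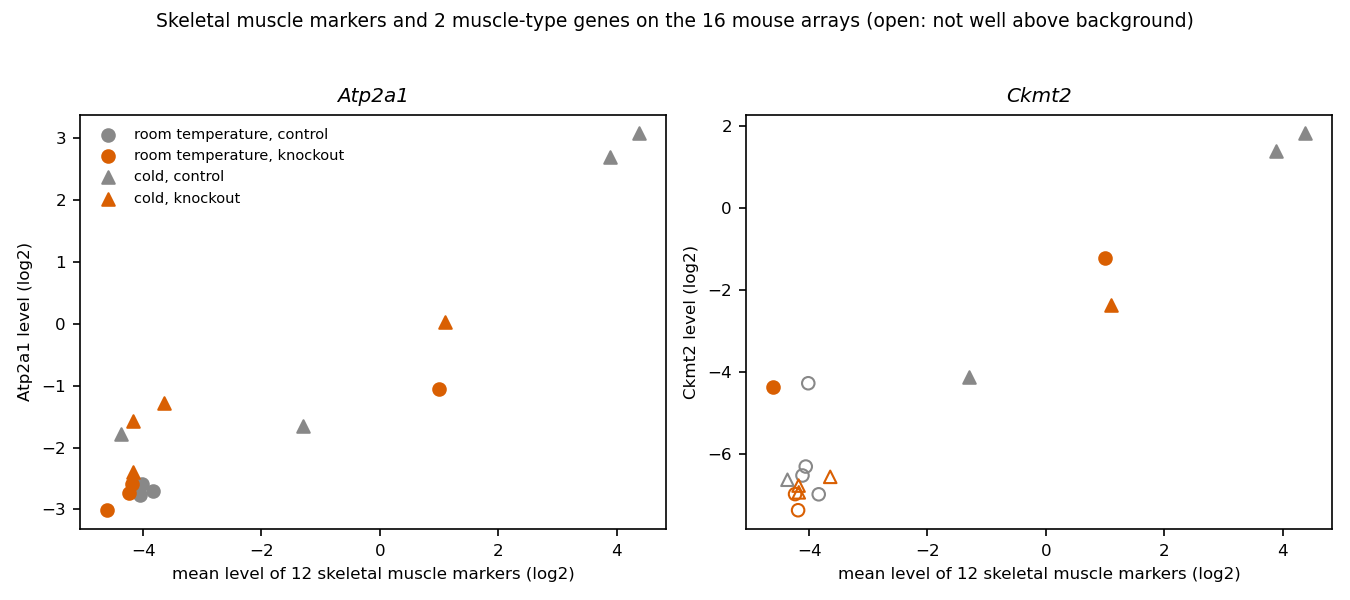
Levels of Atp2a1 and Ckmt2 (log2) against the mean level of 12 skeletal muscle markers on the 16 mouse arrays. Circles are room temperature, triangles cold, grey control and orange knockout, and open symbols were not well above background. The 4 arrays with a marker mean above 0 hold the highest levels of both genes.

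All 12 skeletal muscle markers were well above background on those 4 arrays. The summed muscle signal in units of the 75th percentile reached 539 on cold controls, where the lowest array had 17.4, and 63.3 and 69.7 on the knockout arrays at room temperature and in the cold. Room-temperature controls stood at 10.9 to 13.5. The part of muscle RNA in the Atp2a1 and Ckmt2 values was not tested beyond leaving these arrays out. The 3 genes most like Atp2a1, by Pearson r over the 32 arrays after centring each experiment and among 11015 genes, were Jsrp1 (r = 0.95), a protein of the muscle reticulum, Ldb3 (r = 0.92), of the muscle Z-disc, and Hrc (r = 0.92), a calcium-binding protein of the reticulum.

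Across the 8 groups, Slc6a8 was highest in the room-temperature knockout (2.76 ± 0.17, SD, n = 4), then in the cold knockout (2.71 ± 0.18) and cold control (2.38 ± 0.17), each overlapping the next, and lowest in the Gyk control (1.34 ± 0.03). Ckb was highest in the cold knockout (5.05 ± 0.53) and room-temperature knockout (4.83 ± 0.28), which overlapped each other and the room-temperature control (3.69 ± 1.27), and lowest in the Pparg culture control (-0.67 ± 0.18). Alpl stood at 2.76 ± 0.11 in the room-temperature control and 0.26 ± 0.17 in the room-temperature knockout, each apart from the next group. Its other 6 group means lay between -5.40 and -3.24, and each of those groups overlapped its neighbour. The brighter Atp2a2 probe was highest in the room-temperature control (1.73 ± 0.16), apart from the next, and its 4 culture groups, between -1.10 and -0.14, overlapped in order. Atp2a1 and Ckmt2 were highest in the cold control (0.59 ± 2.67 and -1.89 ± 4.17), where the SD is larger than the gap to the next group. Groups of different experiments were scanned on different days, so these orders are descriptions.

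By the same likeness measure Gamt was most like Tuba4a (r = 0.95), an alpha-tubulin, Abi3 (r = 0.94) and Tubg2 (r = 0.93), a gamma-tubulin. Slc6a8 was most like Fbxo10 (r = 0.91), Ubqln2 (r = 0.86) and Phf20 (r = 0.86). Ckb was most like BC028528 (r = 0.89), Ppfibp2 (r = 0.87) and Slc43a2 (r = 0.87), an amino acid transporter. Alpl was most like Tmem65 (r = 0.81), Scarb1 (r = 0.81), the high-density lipoprotein receptor, and Atmin (r = 0.80), and the brighter Atp2a2 probe was most like Zbtb21 (r = 0.84), 1700123O20Rik (r = 0.81) and Mycbp (r = 0.80). Among the members, Gamt and Ckb had the highest r, at 0.79. The arrays share experiments and group differences, so these values are descriptions of pattern.

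The wider creatine supply and phosphagen genes changed in both directions in most comparisons. In the Pparg knockdown 10 of 11 could be tested and 2 were higher and 3 lower (34.1% of all genes called), among them Phospho1 (-0.71), a phosphatase of phosphocholine, and Shmt1 (-0.52), which makes glycine from serine in the cytosol. In the Gyk knockdown, where 8.76% of all genes were called, 1 of 10 was higher, Ak1 (0.71), the cytosolic adenylate kinase. On the room-temperature knockout arrays 2 of 10 were higher and 5 lower (44.6% of all genes called), led by Phospho1 (-2.40), Shmt1 (-2.39) and Ckmt1 (-0.80), the ubiquitous mitochondrial creatine kinase. On the cold knockout arrays 1 of 11 was higher and 4 lower (32% of all genes called), led by Nnmt (2.48), which consumes the methyl donor that Gamt uses, Phospho1 (-2.17) and Shmt1 (-1.73). The median of the list was -0.14 at room temperature and -0.06 in the cold, beside -0.05 over all genes in each. In cold control mice 5 of 10 were higher and 2 lower (66.8% of all genes called), with Ckmt1 at -2.50, Shmt1 at 1.26 and Shmt2, its mitochondrial counterpart, at 1.21. In cold knockout mice 3 of 10 were higher and 1 lower (67.5% of all genes called), with Shmt1 at 1.92, Ckmt1 at -1.76 and Shmt2 at 1.07. The knockout effect differed between temperatures for 1 of 11, Ckmt1 (0.74), beside 13.4% of all genes. Between the 2 knockdowns it differed for 0 of 10 by limma, and for 1 at an unadjusted p under 0.05, beside 12.4% of all genes called.

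Of 28 other genes of calcium stores, 25 had a probe. In the Pparg knockdown 6 of 15 tested were higher and 3 lower, beside 34.1% of all genes called. The largest were Atp2a3 (-1.47), the third SERCA pump, Hrc (1.08) and Itpr1 (-0.82), a calcium release channel. In the Gyk knockdown 0 of 15 were called by limma, beside 8.76% of all genes, and 2 had an unadjusted p under 0.05. On the room-temperature knockout arrays 4 of 16 were higher and 5 lower (44.6% of all genes called), led by Asph (1.13), whose gene also encodes junctin, Camk2d (0.81), a calcium-dependent kinase, and Mcu (-0.77), the mitochondrial calcium uniporter. In the cold the knockout arrays were higher for 2 of 17, Asph (0.90) and Camk2d (0.89), beside 32% of all genes called in either direction. On cold against room-temperature arrays 4 of 16 were higher and 3 lower in controls (66.8% of all genes called), with Itpr2 at 0.82, Atp2b1, a pump of the cell membrane, at -0.76 and Stim1, the sensor of store calcium, at -0.70. In knockout mice 6 of 17 were higher and 3 lower on the cold arrays (67.5% of all genes called), with Stim2 at -1.59, Itpr3 at 1.03 and Atp2b4 at 0.97. The knockout effect differed between temperatures for 2 of 20, Atp2b4 (1.22) and Stim1 (0.60), beside 13.4% of all genes. Between the 2 knockdowns it differed for 2 of 15, Atp2a3 (-1.46) and Hrc (1.05), beside 12.4% of all genes. The list's median lay between -0.07 and 0.27 in the 8 comparisons, and medians over all genes between -0.05 and 0.25.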

How the data were processed

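Total RNA of 32 samples was labelled with Cy3 and hybridised to 1 array each, per the labels. The authors deposited linear spot intensities, from which Agilent Feature Extraction (version 10.7.3.1) had subtracted background, per the file headers and the submitters' processing notes. Their 75th percentiles differ between arrays (141 to 806), and the series' deposited value file repeats these intensities. Of 44397 spots per array, 1377 control spots and 101 to 247 outlying spots were left out. Here log2 intensities were taken relative to each array's 75th percentile and spots of a probe averaged. Of 39429 probes, 27249 (69.1%) were named through RefSeq's genes, and a gene with several probes was represented by its brightest on average. The grid names the build mm9, so no array coordinates are given and the promoters are those of GRCm38.p6.

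Groups were compared with limma 3.58.1 (R 4.3.3, with version 1.17.8 of data.table), 2-sided, with only the groups of the comparison in the fit and a threshold of 0.05 on adjusted p-values, after testing the scripts on simulated data. The fits held no block unless one is named. Room temperature and cold arrays never shared a slide, so in the alternative fits of cold against room temperature the slide entered as a random block. No 2 arrays held identical values. Same-numbered arrays deviated together in the Pparg culture experiment (correlations of their residuals 0.70 to 0.77) and not throughout the others, so the replicate block is given there. Differently numbered arrays reached 0.72 there, and only 1 control array was most like the knockdown array of its own number. Each slide of that experiment held arrays of different numbers, and these values do not show a pairing by number beyond the shared slide. The 8 genes, the other lists and the rule for naming genes (at most the 3 largest called per list and comparison, and the 3 most alike per gene) were chosen with earlier results of these data known. A gene that this rule names in the Pparg knockdown is not reported here. The precision is limited by 4 arrays per group. Alternatives were 3 other scalings or background corrections, other probe filters and choices, slide and replicate blocks, and leaving out each array. Leaving out the 2 dimmest arrays, or those high in Myh4, was chosen after seeing the data.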

Additional observations from a re-analysis of the deposited data

Results flagged for a closer look

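Among 64 sets of 4 arrays, 1 per gene and group, an array stood far from the other 3 in 3 sets, and chance does so in about 1 in 20. These were Ckmt2 on cold knockout array 4 (-2.36, nearest -6.56), an array high in Myh4, Atp2a2 on cold control array 1 (1.04, nearest 0.42), also high in Myh4, and Atp2a1 on Gyk control array 1 (-3.77, nearest -3.07). By the interaction test of limma, the knockout effect differed between cold and room temperature for Alpl (2.53), Gamt (2.06), the brighter Atp2a2 probe (0.87) and Slc6a8 (-0.91). The Pparg knockdown effect exceeded the Gyk knockdown effect by 0.75 on the brighter Ckb probe. On the other Ckb probe the difference of 0.83 was not called (adjusted p = 0.1787).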

How the results depend on the processing

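With 2 genes called in the Pparg knockdown, quantile normalization and no filter on dim probes each left 1, and median centring and normexp 0. The 1 call in the Gyk knockdown became 0 with normexp, no filter or the replicate block. The count in cold knockout mice went from 2 to 4 without the arrays high in Myh4. The 4 differences of knockout effects became 2 with normexp, which ended Slc6a8 and Atp2a2, and the 1 difference of knockdown effects 0 with median centring or normexp. Leaving out 1 array gave 1 to 2 calls in the Pparg knockdown and 0 to 1 in the Gyk knockdown, 5 to 6 in the room-temperature knockout and 2 to 4 in the cold knockout, 4 to 6 and 2 to 3 for the cold in control and knockout mice, 3 to 4 between knockout effects and 1 between knockdown effects. The replicate block added Atp2a2 to the calls in the Pparg knockdown (adjusted p = 0.02475) and ended no call there. The slide block also added Atp2a2 (adjusted p = 0.02038). In other comparisons the replicate block ended Alpl in the Gyk knockdown (adjusted p = 0.08028) and added Gatm in cold knockout mice (adjusted p = 0.01699). The causes were not tested.

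No called difference changed sign in any alternative run. Of uncalled differences, normexp turned Alpl in the Pparg knockdown (-0.37), Gatm in cold knockout mice (0.26) and Gamt between knockdowns (0.10). Median centring turned Gamt in the Pparg knockdown (-0.0906), Alpl in the cold knockout (-0.0238), Slc6a8 in cold knockout mice (0.14) and Gatm between knockout effects (-0.0154). Quantile normalization turned Slc6a8 in cold knockout mice (0.0075) and Gamt between knockdowns (0.0753). The second Atp2a2 probe gave 0.64 in the Gyk knockdown, 0.58 in cold knockout mice and -0.88 between knockdowns. The mean of both Atp2a2 probes gave 0.13 in cold knockout mice and -0.0621 between knockdowns. The second Ckb probe gave -0.0651 in cold knockout mice. Without the arrays high in Myh4, Atp2a1 was -0.12 in the knockout at room temperature and 0.0797 between knockout effects, and Gatm -0.13 between knockout effects. Without the 2 dimmest arrays Slc6a8 was -0.15 in the Gyk knockdown and Gamt 0.0475 between knockdowns. Leaving out 1 array gave both signs for Alpl (-0.17 to 0.91) and Gamt (-0.0412 to 0.15) in the Pparg knockdown, Slc6a8 in the Gyk knockdown (-0.0319 to 0.40), Atp2a1 in the knockout at room temperature (-0.12 to 0.54), Alpl in the cold knockout (-0.0874 to 0.17), Slc6a8 in cold knockout mice (-0.12 to 0.0201), Gatm between knockout effects (-0.0095 to 0.28), and Alpl (-1.08 to 0.0072) and Gamt (-0.16 to 0.032) between knockdowns.

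Median centring moved the median difference of all genes by 0.35 in cold control mice and 0.19 in cold knockout mice, and the share of calls that were higher from 63.5% to 77.4% and from 62.5% to 71.6%. Fits with the filter that asks for all arrays of a group well above background had no value for genes that failed it. Gatm, Ckmt2, and Alpl in culture and in the cold lie near background, which limits their differences, and 4 arrays per group limit the rest.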
